A study of Rattus norvegicus with 3 samples.

Results

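The 10 genes described here encode stathmins, a growth cone protein and proteins that bind or organise microtubules: Stmn1, Stmn2, Stmn3, Stmn4, Gap43, Mapt, Map1b, Map2, Dpysl3 and Crmp1. They were chosen by name from the 29772 genes counted in the files, and all 10 were found by symbol. Their transcripts were counted in freshly prepared cells of the rat embryonic cerebral cortex (Rattus norvegicus), wild type and dissociated with papain, as 3' single-cell RNA libraries. There were 3 libraries, labelled E14, E16 and E18 for the embryonic day, with 1 library per label, so a label and its library cannot be told apart. No difference between labels could be tested, and no p-value is given. Every interval below is an exact 95% Poisson interval for a level, or an exact Clopper-Pearson interval for a share, and covers counting error only. The labels give neither strain nor litter nor the number of embryos behind a library.

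Stathmins bind free tubulin dimers and favour the loss of subunits from microtubule ends, an action that phosphorylation switches off. Stmn1 is cytosolic and is found in dividing cells and in neurons, whereas Stmn2, Stmn3 and Stmn4 carry a membrane anchor and are known as neuronal proteins of the Golgi apparatus and the growth cone, the motile tip of a growing axon. Gap43 is a membrane protein of growth cones. Tau, encoded by Mapt, stabilises axonal microtubules, Map2 does so mainly in dendrites, and Map1b is the large microtubule-associated protein of young, growing axons. Dpysl3 and Crmp1 belong to the collapsin response mediator proteins, which bind tubulin and relay guidance signals such as semaphorin 3A. In the embryonic cortex, radial glia divide along the ventricle, produce intermediate progenitors, and these in turn produce excitatory neurons that migrate and grow axons.

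After cells with fewer than 1000 genes, cells with more than 10% mitochondrial UMIs and predicted doublets were removed, 4286, 4977 and 5431 cells remained in E14, E16 and E18. Their median depth lay between 10477 and 12264 UMIs, and at most 8 barcodes were shared by any pair of libraries. Cells were clustered without the members, and clusters were called radial glia-like, intermediate progenitor-like, newborn excitatory neuron-like or maturing excitatory neuron-like from marker genes; the short names below stand for these classes. Neurons whose markers fell between newborn and maturing are called not split. Of the 25 clusters, 13 took over 90% of their cells from 1 library, so a cluster may be that library. The E16 library had only 3 newborn, 1 not split and 1 maturing cell, and its neurons are represented by a cluster of 595 cells left unnamed, led by Calb1, Calb2, Lhx9, Ebf1 and Nxph4. Levels are UMIs summed over the cells of a class in a library, divided by the UMIs of all genes in that sum and scaled to counts per 1e+06 (CPM), and ratios are log2 of (CPM + 1).

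Genes known to mark early or late radial glia did not follow the order of the labels. Hmga2, an early progenitor gene, stood at 11.6 CPM in the radial glia of E14, 223 CPM in E16 and 21.3 CPM in E18. Aldoc, a gene of later, glia-like progenitors, stood at 732, 17.1 and 240 CPM in the same order. Whether library labels were exchanged was not tested. E14, E16 and E18 below stand for the libraries so labelled, and no order in time is read from them. Free RNA was gauged in microglial and endothelial cells (21, 41 and 20 cells), where Stmn2 was counted at 232 CPM in E14, 1.34 CPM in E16 and 29.5 CPM in E18. Mapt stood there at 89.1, 2.67 and 7.38 CPM. The Stmn2, Stmn3 and Mapt levels of E14 radial glia, and the Stmn2 and Mapt levels of E18 radial glia, were, as summed levels, at or below this background, which rests on few cells.

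Promoter sequence was taken for the members from RefSeq, build GRCr8, and 6 of the 10 members had a window. The 3 below are shown because their motif content differs while all 3 genes had higher levels in neurons. Each line gives the 250 bases before the annotated start, 5' to 3' on the gene's strand, with every match to 6 searched motifs in capitals. Stmn1 lies at chr5:151964929-151965178 on the plus strand, Stmn3 at chr3:188802495-188802744 and Map1b at chr2:32644472-32644721, both on the minus strand.
Stmn1: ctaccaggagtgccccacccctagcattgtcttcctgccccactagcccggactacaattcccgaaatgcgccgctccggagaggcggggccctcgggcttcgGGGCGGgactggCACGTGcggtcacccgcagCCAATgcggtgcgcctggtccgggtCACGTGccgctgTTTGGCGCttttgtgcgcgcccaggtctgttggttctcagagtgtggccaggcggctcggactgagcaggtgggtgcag
Stmn3: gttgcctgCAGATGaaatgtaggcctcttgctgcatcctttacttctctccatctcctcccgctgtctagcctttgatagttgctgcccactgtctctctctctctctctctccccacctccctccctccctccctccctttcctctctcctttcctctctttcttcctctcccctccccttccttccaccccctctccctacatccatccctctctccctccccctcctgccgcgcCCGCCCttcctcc
Map1b: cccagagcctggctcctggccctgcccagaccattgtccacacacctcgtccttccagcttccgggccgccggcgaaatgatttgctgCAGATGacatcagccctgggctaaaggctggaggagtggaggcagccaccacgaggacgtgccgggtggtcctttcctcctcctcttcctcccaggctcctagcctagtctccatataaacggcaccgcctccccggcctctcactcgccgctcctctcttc
The motifs were searched on both strands and were chosen after the sequences had been read. They were TTTGGCGC of the E2F type, the CCAAT box, the E-box CAGATG and the E-box CAGCTG as bound by proneural factors, the E-box CACGTG, and the GC box GGGCGG. The Stmn1 window held TTTGGCGC at 79 bases before the start, which 0.412% of the 33469 RefSeq windows of the same length hold. It also held CCAAT (34% of windows), CACGTG at 135 and 91 bases before the start (5.59% of windows) and GGGCGG (30.5% of windows). CAGATG, which 14% of windows hold, lay 242 bases before the start in Stmn3 and 162 bases before it in Map1b, and Stmn3 also held a GC box. No matches overlapped in these 3 windows. CAGCTG, held by 12% of windows, was in none of the 3, and the Map2 window held none of the 6 motifs. A match is a string of letters and was not tested as a binding site.

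Members were higher in neurons than in radial glia in each library. In maturing neurons all 10 members were at least 2-fold above radial glia in E14, with a median log2 ratio of 3.04, and all 10 were so in E18, with a median of 3.62. Among all genes that reached 50 CPM in either class, 14.9% were at least 2-fold higher in E14 and 18.7% in E18. In the unnamed E16 neuron cluster all 10 were at least 2-fold above E16 radial glia, with a median of 3.62, against 15.4% of genes. Stmn2 and Mapt had the 2 highest ratios in each of these 3 comparisons, and Stmn1 and Map1b had the 2 lowest. In all excitatory neurons of a library together, a group added after the data were seen, 10 members were at least 2-fold above radial glia in E14 (14.3% of genes) and 9 in E18 (15.8%), with medians of 2.85 and 3.28.

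The step from radial glia to intermediate progenitors took in fewer members. In E14, 3 members were at least 2-fold higher in intermediate progenitors (5.66% of genes), in E16 6 members (6.05%) and in E18 5 members (5.92%), with median log2 ratios of 0.63, 1.16 and 1.19. From intermediate progenitors to newborn neurons, 7 members were at least 2-fold higher in E14 (8.6% of genes), and 7 were in E18 (6.59%), of which Mapt and Stmn4 stayed under 50 CPM. Newborn neurons against radial glia gave 9 of 10 members in E14 (13.5% of genes) and 7 of 10 in E18 (14.3%). In E18, Stmn4 and Mapt stayed under 50 CPM in radial glia, intermediate progenitors and newborn neurons, so 8 of 10 members reached the level asked of the other genes. Not split neurons against radial glia gave 9 members in E14 (14.3% of genes) and 9 in E18 (15.3%). Not split neurons had 0 members at least 2-fold above newborn neurons in E14 (1.48% of genes) and 4 in E18 (3.54%). The E14 newborn class holds a cluster of 186 cells led by Crym, placed there by the naming rule with 5 newborn markers raised. Its summed maturing markers stood at 2824 CPM and its newborn markers at 1620 CPM, against 2579 and 1828 CPM in E14 not split neurons, so by these sums it lay nearer to maturing neurons than the not split class did. Without it, 3 members were at least 2-fold higher in not split than in newborn neurons of E14 (4.04% of genes), and 8 in newborn neurons than in radial glia (13%). Mapt alone was at least 2-fold higher in maturing than in not split neurons, in E14 (2.6% of genes) and in E18 (4.26%).

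**Figure D1:**
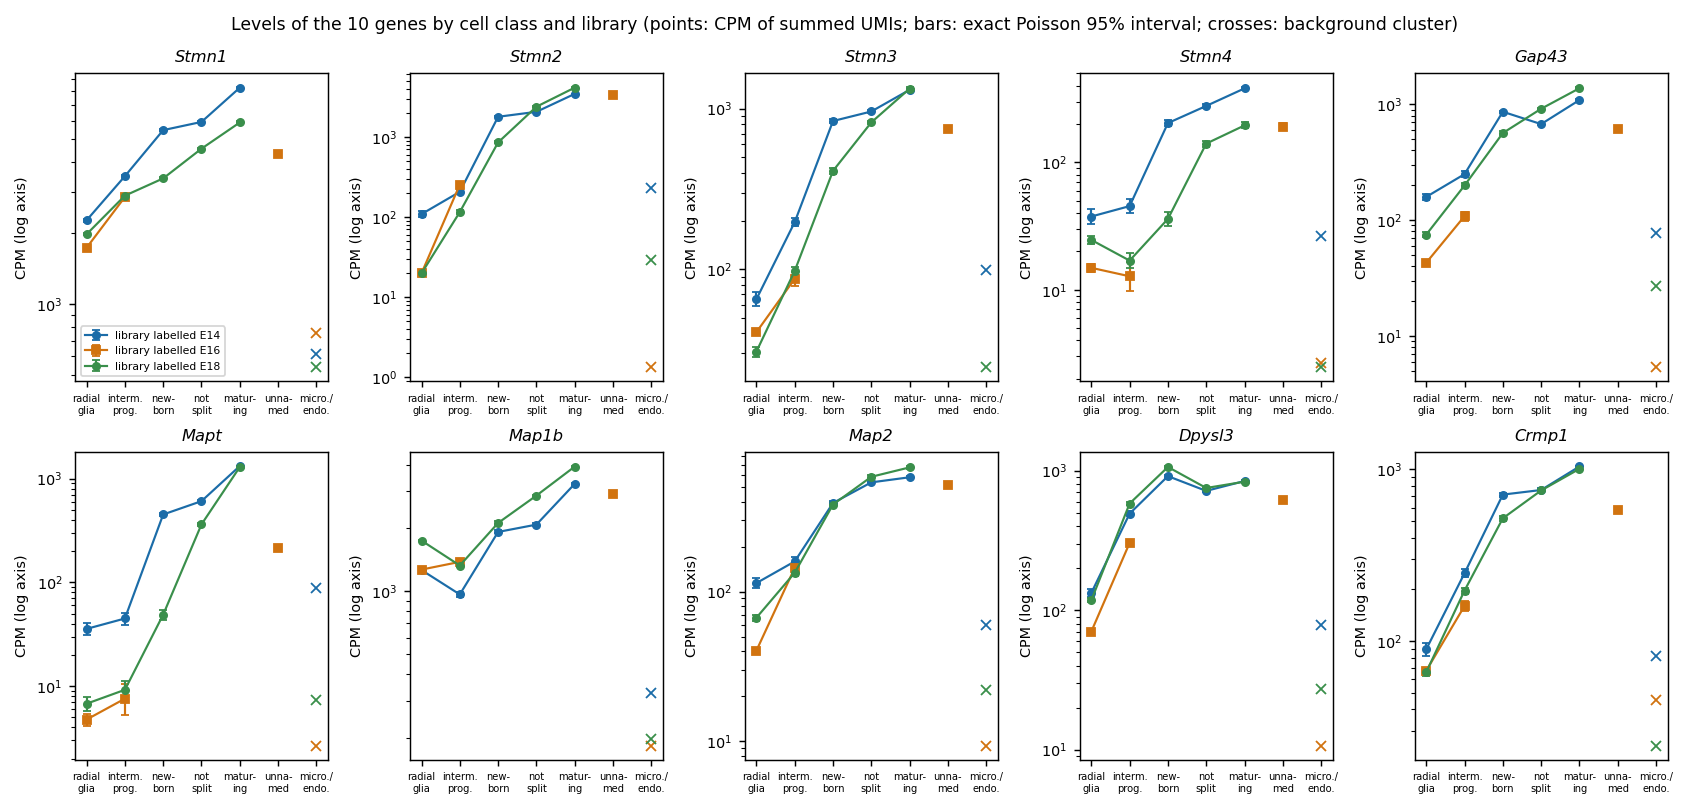
Level of each member in CPM on a log axis (vertical) by cell class (horizontal) in the libraries labelled E14, E16 and E18; points are levels with exact 95% Poisson intervals, and crosses are the level in microglial and endothelial cells (the Stmn3 value of 0 in E16 is not drawn). Stmn2 goes from 109 CPM in E14 radial glia to 3438 CPM in E14 maturing neurons, while Map1b goes only from 1258 to 3240 CPM.

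Stmn2, the membrane-anchored stathmin of growing axons, had the highest ratio of neurons to radial glia of the 10 members in E16 and E18. In radial glia its level was 109 CPM (101 to 118) in E14, 19.9 CPM (18.6 to 21.2) in E16 and 19.8 CPM (18.1 to 21.7) in E18. In maturing neurons it was 3438 CPM (3414 to 3462) in E14 and 4114 CPM (4066 to 4162) in E18, and the unnamed E16 cluster had 3313 CPM. All neuron levels thus stood far above those of radial glia, with no overlap of counting intervals, and the E14 radial glia stood above the other two libraries. The log2 ratio of maturing neurons over radial glia was 4.97 in E14 and 7.63 in E18, and that of the unnamed cluster was 7.31. The summed Stmn2 level of E14 radial glia was below that of the 21 background cells of that library, while the median cell had 81.0 CPM in radial glia and 53.4 CPM in the background cells. Not split neurons stood between newborn and maturing cells, at 2054 CPM in E14 and 2377 CPM in E18.

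Stmn2 was not at 1 level across newborn neurons. Their Stmn2 was 1781 CPM (1751 to 1812) in E14 and 853 CPM (830 to 876) in E18. Without the Crym-led cluster it was 736 CPM (711 to 762) in E14 and 785 CPM (764 to 808) in E18. The label difference was then small and ran the other way, with counting intervals just apart. Over single E18 newborn neurons the quartiles of Stmn2 were 109, 443 and 1156 CPM, a wide spread within 1 class. In maturing neurons of E14 the quartiles were 2789, 3336 and 3916 CPM, a narrower spread relative to the level. The 2 groups are from different libraries, with median depths of 7471 UMIs in the newborn and 15003 UMIs in the maturing cells. Counting error per cell thus weighed more in the newborn cells, and its part in the spreads was not tested. In intermediate progenitors Stmn2 stood at 206 CPM (194 to 219) in E14, 253 CPM (239 to 268) in E16 and 115 CPM (109 to 122) in E18. These were above radial glia by log2 ratios of 0.92, 3.61 and 2.48, and in E14 below the 232 CPM of the background cells. A Ppp1r17-led cluster held the highest level in each library, 337 CPM in E14, 544 CPM in E16 and 355 CPM in E18. The other 2 clusters of the class lay between 46.2 and 190 CPM. In E16 the summed level came from the 48.3% of the 406 cells that had a Stmn2 UMI at full depth.

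Stmn1, the cytosolic stathmin that dividing cells also use, was high in every class. In radial glia it stood at 2265 CPM (2227 to 2303) in E14, 1732 CPM (1720 to 1744) in E16 and 1976 CPM (1959 to 1994) in E18. Maturing neurons had 8270 CPM (8232 to 8307) in E14 and 5887 CPM (5830 to 5945) in E18. Neurons were again the higher class, but by a log2 ratio of only 1.87 in E14 and 1.57 in E18. Intermediate progenitors lay between, at 3484, 2842 and 2881 CPM in label order. Background cells held 614, 754 and 539 CPM, so Stmn1 in radial glia stood clearly above free RNA. The RefSeq table lists Stmn1-like pseudogene copies, and how reads shared with them were counted is not known.

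Stmn3, another membrane-anchored stathmin, was low in radial glia, at 65.3 CPM (59 to 72.1) in E14, 40.7 CPM (38.9 to 42.6) in E16 and 30.8 CPM (28.7 to 33.1) in E18. Maturing neurons reached 1310 CPM (1296 to 1325) in E14 and 1333 CPM (1306 to 1360) in E18. Here the labels' counting intervals overlapped, whereas every neuron class stood above progenitors. The log2 ratios to radial glia were 4.31 and 5.39, and the E14 background of 99.3 CPM exceeded the E14 radial glia.

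Stmn4 had the lowest ratios of the 3 membrane-anchored stathmins, and a difference between labels. Radial glia had 37.6 CPM (32.9 to 42.9) in E14, 14.9 CPM (13.8 to 16) in E16 and 24.6 CPM (22.7 to 26.6) in E18. Maturing neurons had 382 CPM (374 to 390) in E14 but 195 CPM (185 to 206) in E18, and newborn neurons had 204 CPM (194 to 215) against 36 CPM (31.5 to 41). In E18 newborn neurons Stmn4 was thus barely above radial glia, with a log2 ratio of 0.53, where E14 gave 2.41. The E18 ratio ran from -0.06 to 2.04 over 12 other settings, 8 of them under 2-fold, and both E18 levels were under 50 CPM. The E14 ratio was 1.34 without the Crym-led cluster, and 0.07 under a filter of 2000 genes and 5% mitochondrial UMIs. It was also the only member that was lower in intermediate progenitors than in radial glia in both E16, by a log2 ratio of -0.21, and E18, by -0.51.

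Within single cells thinned to 2000 UMIs, Stmn1 was counted in nearly all cells of these classes, so cells with Stmn2 mostly had Stmn1 too. Cells with neither made up 2.74%, 3.52% and 3.14% of radial glia in label order. The pairing therefore says little beyond the share of cells with Stmn2. Both were found in 18.2% of radial glia in E14, 3.80% in E16 and 4.26% in E18. In newborn neurons 72.6% of cells had both in E14 and 54.1% in E18, and in maturing neurons 99.7% and 99.2%. The share moved from few cells to almost every cell along the classes, and cells with Stmn2 alone made up at most 0.748% of any of these classes. Stmn2 was 4.59% of the summed Stmn1 and Stmn2 UMIs of radial glia in E14, 1.13% in E16 and 0.994% in E18. It was 29.4% in the maturing neurons of E14, 41.1% in those of E18 and 43.4% in the unnamed E16 cluster.

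**Figure D2:**
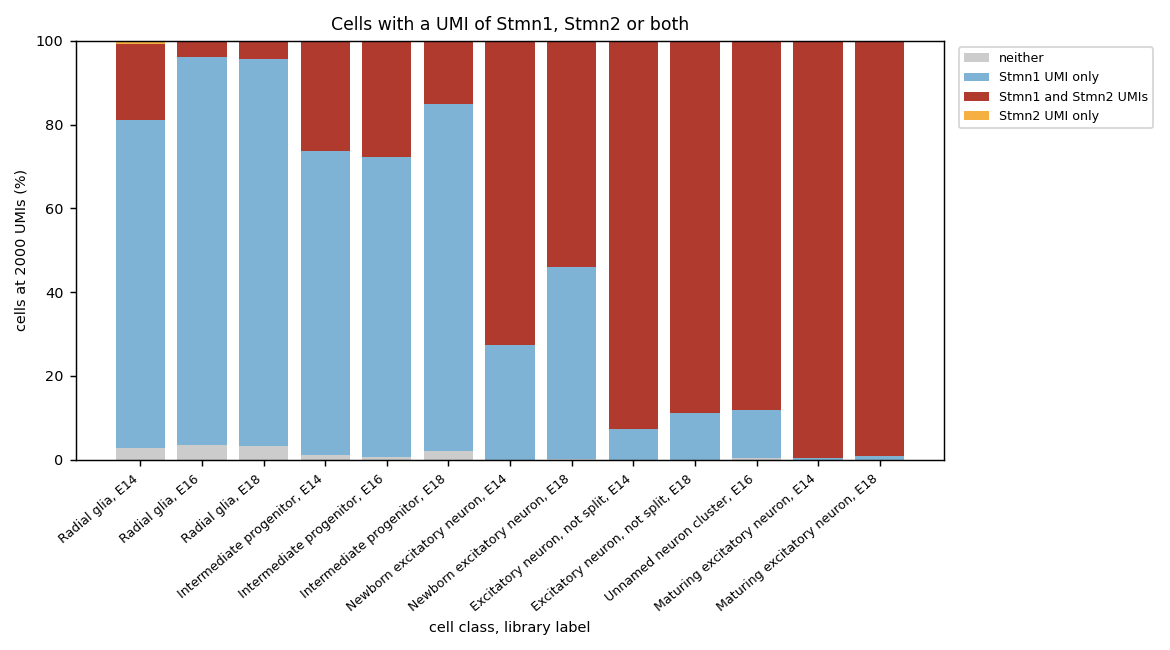
Stacked share of cells (percent, vertical axis) with a UMI of neither, Stmn1 only, both or Stmn2 only after thinning to 2000 UMIs, by class and library (horizontal axis). Cells with both are 3.80% of E16 radial glia and 99.7% of E14 maturing neurons.

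Gap43, the growth cone membrane protein, was 159 CPM (149 to 169) in the radial glia of E14, 42.8 CPM (40.9 to 44.7) in those of E16 and 74.9 CPM (71.5 to 78.3) in those of E18. In maturing neurons it was 1089 CPM (1075 to 1102) in E14 and 1377 CPM (1350 to 1405) in E18. Maturing neurons were the highest excitatory class of both libraries, with log2 ratios to radial glia of 2.77 and 4.18. Background cells had 77.4, 5.35 and 27.1 CPM, below the radial glia of each library. The path to this level differed: newborn neurons had 863 CPM in E14 and 565 CPM in E18, and not split neurons 675 CPM and 915 CPM. In E14 the newborn class was therefore above the not split class and in E18 below it. Without the Crym-led cluster the log2 ratio of not split over newborn neurons was -0.05 in E14 and 0.75 in E18.

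Mapt, which encodes tau, had its highest level in maturing neurons. Its radial glia levels were 35.6 CPM (31 to 40.7) in E14, 4.77 CPM (4.15 to 5.45) in E16 and 6.77 CPM (5.79 to 7.87) in E18. Maturing neurons had 1319 CPM (1305 to 1334) and 1291 CPM (1264 to 1318) in E14 and E18, so the 2 libraries were close at this end. The log2 ratios to radial glia were 5.17 and 7.38, over radial glia levels at or below background in both. Newborn neurons had 451 CPM (435 to 466) in E14 and 48.8 CPM (43.5 to 54.6) in E18. Not split neurons of E18 had 362 CPM (349 to 374), so in E18 most of the difference lay beyond the newborn class. After thinning to 2000 UMIs, 31.4% of E14 newborn neurons (28.1% to 34.8%) and 6.87% of E18 newborn neurons (5.2% to 8.87%) had a Mapt UMI. Without the Crym-led cluster, E14 newborn neurons had 92.5 CPM (83.6 to 102) and 16.5% of cells with a UMI (13.6% to 19.8%), and E18 newborn neurons 35.4 CPM (30.9 to 40.4) and 6.28% (4.68% to 8.22%). When no doublets were removed, the log2 ratio of Mapt in E18 newborn neurons over radial glia turned from 2.68 to -0.17.

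Map2 and Map1b, the other microtubule-associated proteins, behaved unlike Mapt. Map2 in radial glia stood at 114 CPM (106 to 123) in E14, 40.3 CPM (38.5 to 42.2) in E16 and 66.9 CPM (63.8 to 70.2) in E18. In maturing neurons it stood at 581 CPM (571 to 591) in E14 and 676 CPM (657 to 696) in E18 maturing neurons. Its newborn levels, 391 CPM (377 to 406) in E14 and 382 CPM (367 to 398) in E18, had overlapping intervals. Map1b was high in radial glia already, at 1258 CPM (1230 to 1287) in E14, 1265 CPM (1254 to 1275) in E16 and 1739 CPM (1723 to 1755) in E18. Its maturing neurons had 3240 CPM (3217 to 3264) in E14 and 3916 CPM (3870 to 3963) in E18, the smallest log2 ratios of the 10 members, 1.36 and 1.17. In newborn neurons Map1b was above radial glia by a log2 ratio of 0.60 in E14 and 0.28 in E18, under the 2-fold mark in both. The E14 ratio was 0.12 without the Crym-led cluster and turned to -0.13 under the filter of 2000 genes and 5% mitochondrial UMIs. Its level in background cells, 326, 183 and 197 CPM, was below that of every class just named.

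Dpysl3, a collapsin response mediator protein, had its highest level of the classes from radial glia to maturing neurons in newborn neurons. In radial glia it stood at 133 CPM (124 to 142) in E14, 70.2 CPM (67.8 to 72.7) in E16 and 118 CPM (114 to 122) in E18. Intermediate progenitors had 492 CPM (473 to 512) in E14 and 581 CPM (568 to 595) in E18, and were already 1.88, 2.10 and 2.29 above radial glia on the log2 scale in E14, E16 and E18. Newborn neurons had 913 CPM (892 to 936) in E14 and 1062 CPM (1037 to 1088) in E18, against 843 CPM (831 to 855) and 833 CPM (812 to 855) in maturing neurons. The intervals of newborn and maturing neurons did not overlap in either library. From newborn to not split neurons the log2 ratio was -0.35 in E14 and -0.50 in E18.

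Crmp1, of the same family, followed a plain ladder. Its level in radial glia was 89.6 CPM (82.1 to 97.6) in E14, 67.2 CPM (64.8 to 69.6) in E16 and 65.9 CPM (62.8 to 69.1) in E18, and in intermediate progenitors 249, 160 and 197 CPM. Newborn neurons had 714 CPM (694 to 733) in E14 and 519 CPM (502 to 537) in E18. Maturing neurons had 1041 CPM (1028 to 1054) and 1008 CPM (985 to 1032), with overlapping intervals. Without the Crym-led cluster the newborn levels were close too, with a log2 ratio of E18 over E14 of -0.03 (-0.14 to 0.08). The log2 ratios of maturing neurons to radial glia were 3.52 and 3.91.

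At a fixed depth, the shares of cells with a Stmn2 or a Gap43 UMI were also higher in maturing neurons than in radial glia. Stmn1 was counted in nearly all cells from radial glia to maturing neurons, so its share gives no order of these classes. After thinning to 2000 UMIs, Stmn2 was found in 19% of radial glia in E14 (68.7% before thinning), 3.97% in E16 (20.1%) and 4.38% in E18 (21.6%). In the background cells of all libraries together it was found in 7.5% of 80 cells, whose median depth was 15625.5 UMIs against 13012.5, 13620 and 12574 in radial glia. In E14 alone, 14.3% of the 21 background cells had a Stmn2 UMI (3.05% to 36.3%), an interval that holds the radial glia share. In E16 it was 2.44% of 41 cells (0.0617% to 12.9%), below the radial glia share, and in E18 11.1% of 18 cells (1.38% to 34.7%), above it, with both radial glia shares inside the intervals. Of 171 choroid plexus-like cells in E16, 4.68% had Stmn2 with Stmn1 and 0.585% had Stmn2 alone. These shares were 0.935% and 3.74% in 107 meningeal-like cells, and 2.42% and 2.42% in 124 erythroid cells. In E16 radial glia they were 3.80% and 0.173%, so by share Stmn2 there was not above these non-neuronal classes. Stmn1 was found in 68.8% of background cells and Map1b in 30%, so a UMI of either says little about a single cell. Gap43 was found in 24.4%, 8.39% and 14.4% of radial glia, and in 82.5% of E14 and 91.2% of E18 maturing neurons. Mapt was found in 91.9% and 91.2% of maturing neurons and in 2.5% of background cells.

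**Figure D3:**
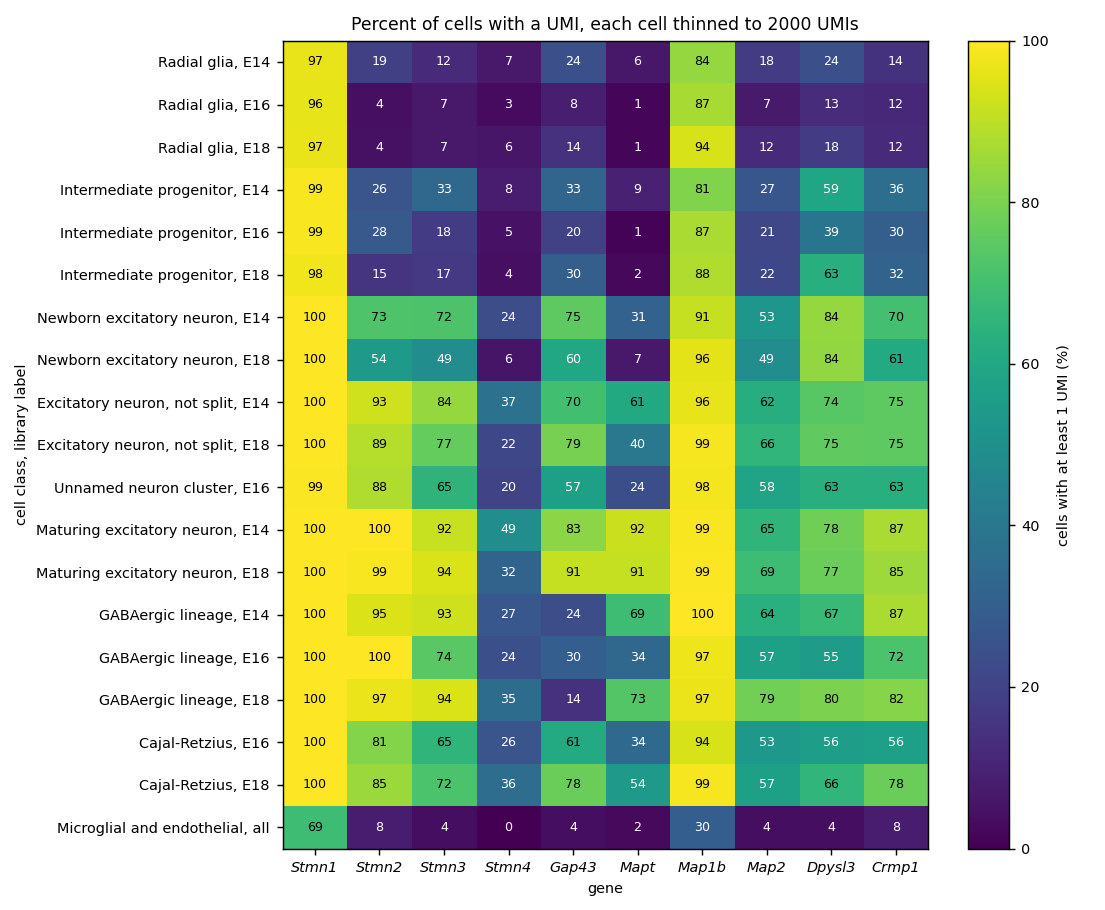
Heat map of the percent of cells with at least 1 UMI of each member after thinning to 2000 UMIs per cell, with members as columns, class and library as rows, and the rounded percent in each field. Mapt is found in 31.4% of E14 and 6.87% of E18 newborn neurons, and in over 91% of maturing neurons of both.

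Between labels, the newborn class differed and the maturing class did not pass the 2-fold mark. In newborn neurons of E18 over E14 the median log2 ratio of the members was -0.64, and 4 members were at least 2-fold lower: Mapt (-3.18), Stmn4 (-2.47), Stmn2 (-1.06) and Stmn3 (-1.03). Of all genes at the level, 2.96% were at least 2-fold lower. The class is made of different clusters in the 2 libraries, in E14 a Sstr2-led cluster of 567 cells and the Crym-led cluster, in E18 a Neurod1-led cluster of 764 cells. The Crym-led cluster had 3311 CPM of Stmn2 and 975 CPM of Mapt, against 738 and 93.5 CPM in the Sstr2-led cluster and 786 and 33.4 CPM in the Neurod1-led cluster. Without the Crym-led cluster, a choice made after these values were seen, the median was -0.20 and 2 members were at least 2-fold lower (1.43% of genes). Mapt was then -1.36, Stmn4 -1.69, Stmn3 -0.64 and Stmn2 0.09. With a stricter filter of 2000 genes and 5% mitochondrial UMIs, which left 54 newborn cells in E14, the median was 0.27, with Stmn2 at 1.33, Mapt at 0.42 and Stmn3 at 0.17. Stmn4 was lower in E18 in each of 12 other settings tried. Summed erythroid marker RNA in newborn neurons was 1541 CPM in E14 and 174 CPM in E18, and its part in these differences was not tested.

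In maturing neurons of E18 over E14 the median was 0.00 and 0 of 10 members passed 2-fold, against 2.96% of genes higher and 1.34% lower. Stmn4 was the lowest, at -0.96, followed by Stmn1 at -0.49, and Gap43 (0.34) and Map1b (0.27) were the highest. This class, too, is made of different clusters, Tafa2-led (742 cells) and LOC120095249-led (726 cells) in E14 and LOC103691223-led (497 cells) in E18. Not split neurons, Selenom-led in E14 and Pcp4-led in E18, had a median of 0.03 and 0 members past 2-fold (2.21% of genes higher and 2.53% lower), with Stmn4 at -0.98 and Mapt at -0.74. Stmn4 was thus lower in E18 in all 3 neuron classes.

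Several members were lower in the progenitors of E16 and E18 than in those of E14. In radial glia 4 members were at least 2-fold lower in E18 than in E14, namely Stmn2 (-2.40), Mapt (-2.24), Gap43 (-1.07) and Stmn3 (-1.06), against 2.81% of genes. In E16 5 members were at least 2-fold lower than in E14 (7.16% of genes). Both shares are over genes at 50 CPM, which Mapt and Stmn4 did not reach in radial glia, so 3 of the 4 and 3 of the 5 belong to them. Background cells differed in the same direction, with Stmn2 at 232 CPM in E14 and 29.5 CPM in E18, and its part in the result was not tested. Summed markers of later classes in radial glia were also highest in E14. Those of intermediate progenitors were 1507, 561 and 813 CPM in label order, of newborn neurons 107, 67 and 81.4, and of maturing neurons 200, 159 and 141. Summed radial glia markers were 9849, 4361 and 6190 CPM, and the part of these differences was not tested. Radial glia came mainly from H4f3-, Ung- and Tuba1c-led clusters in E16, and from Aldoc- and Prc1-led clusters in E14 and E18. In intermediate progenitors 3 members were at least 2-fold lower in E18 than in E14 (1.2% of genes), Mapt at -2.17, Stmn4 at -1.37 and Stmn3 just past the mark. Mapt (44.8 CPM in E14) and Stmn4 (45.4 CPM in E14) were under 50 CPM in both, so only Stmn3 belongs to the genes behind that share, and the E14 Mapt level was below its background of 89.1 CPM.

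**Figure D4:**
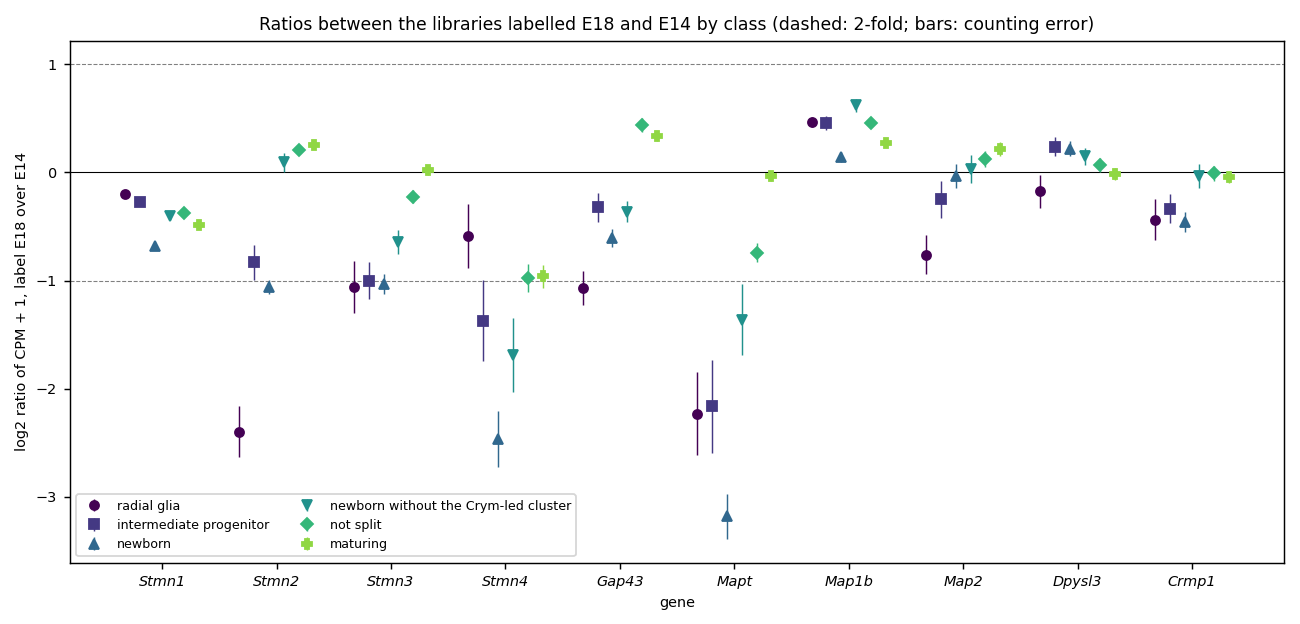
Log2 ratio of the libraries labelled E18 over E14 (vertical axis) for each member (horizontal axis) by class, with bars for the limits that both counting intervals give, a solid line at 0 and dashed lines at 2-fold. Newborn neurons of E18 over E14 hold the lowest values, Mapt at -3.18 and Stmn4 at -2.47, while all maturing values lie between -0.96 and 0.34.

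Other neurons of the same libraries set Gap43 apart from the other members. GABAergic lineage-like cells, the source of cortical inhibitory neurons, numbered 55, 75 and 72. Their Gap43 was 72.1 CPM (46.2 to 107) in E14, 295 CPM (253 to 342) in E16 and 109 CPM (79.8 to 145) in E18, far under the maturing excitatory neurons. The log2 ratio to maturing neurons was -3.90 (-4.55 to -3.31) in E14 and -3.65 in E18, and that to the unnamed E16 cluster was -1.05. Gap43 was the only member at least 2-fold lower in E16 (6.25% of genes) and E18 (9.29% of genes). In E14 (7.83% of genes) Mapt was lower too, at -1.04. The same cells had 2893, 4213 and 2965 CPM of Map1b and 33.1%, 49.4% and 31.3% of their Stmn1 and Stmn2 UMIs from Stmn2. Apart from Gap43, and Mapt in E14, the members were within 2-fold of these excitatory neurons.

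Cajal-Retzius-like cells, early neurons of the cortical surface, numbered 144 in E16 and 67 in E18. Gap43 stood at 911 CPM (860 to 964) in E16 and 2400 CPM (2298 to 2506) in E18. In E18 that was above maturing neurons, with a log2 ratio of 0.80, whereas Mapt was below them, at -1.37, the 1 member at least 2-fold lower (6.33% of genes). The summed Cajal-Retzius markers of the unnamed E16 cluster were 297 CPM, against 6.46 and 11.1 CPM in newborn neurons of E14 and E18. These markers include Calb2, a leading gene of that cluster, and the sum without it was not taken.

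**Figure D5:**
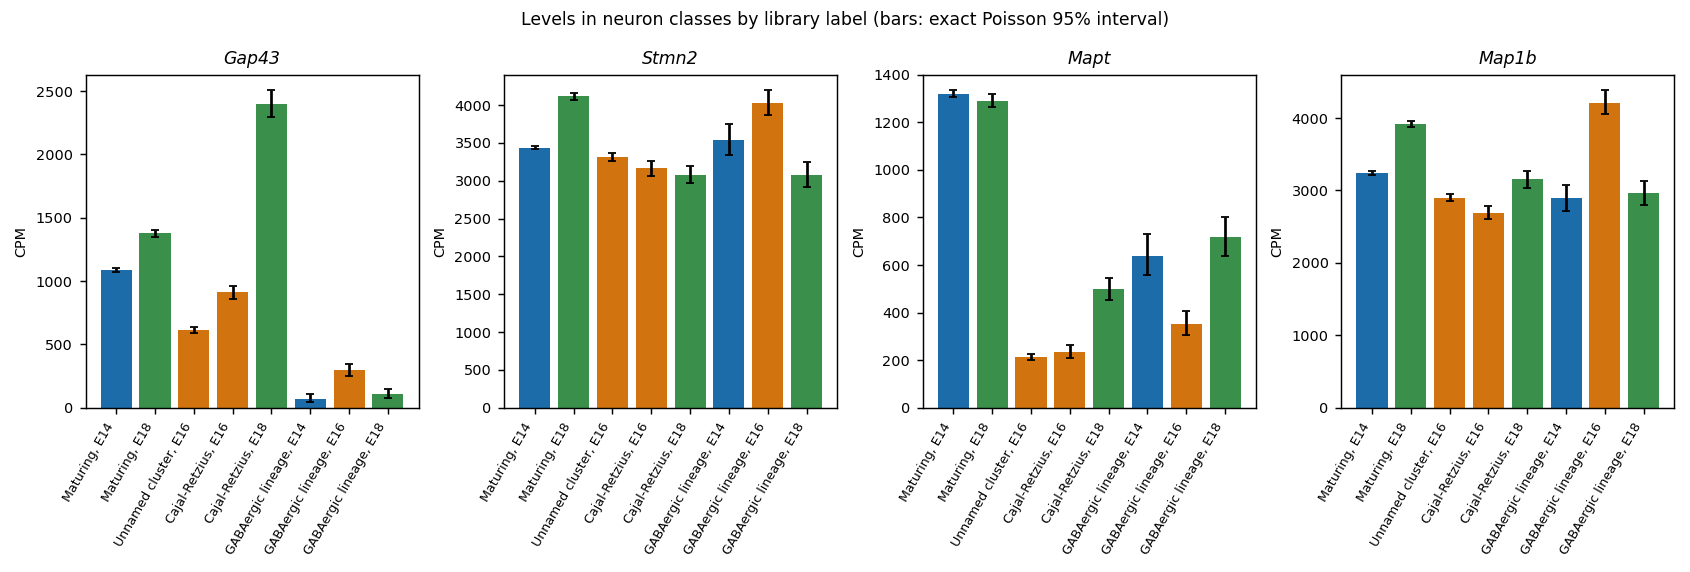
Levels of Gap43, Stmn2, Mapt and Map1b in CPM (vertical axis, from 0) in maturing, unnamed, Cajal-Retzius and GABAergic lineage cells by library (horizontal axis), with exact 95% Poisson intervals. Gap43 is 72.1 to 295 CPM in GABAergic lineage cells and 613 to 2400 CPM in the others, whereas Stmn2 is 3079 to 4114 CPM in all 8 groups.

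Stmn1 and Stmn4 differed between intermediate progenitors with and without a UMI of the mitotic genes Mki67 or Top2a, judged after thinning each cell to 2000 UMIs. In intermediate progenitors, Stmn1 was 4687 CPM with and 2727 CPM without in E14, 2889 and 2726 CPM in E16, and 3535 and 2153 CPM in E18, a ratio with 1 CPM added of 1.72, 1.06 and 1.64. The cells with such a UMI were the higher group in each library, by little in E16. Stmn4 ran the other way, at 26.1 CPM with and 57.6 CPM without in E14, 9.05 and 21.6 CPM in E16, and 9.07 and 25.7 CPM in E18. With 1 CPM added it was 2.16, 2.25 and 2.65 times higher in the cells without such a UMI, where 1.82%, 0.125% and 0.929% of genes were at least 2-fold lower in the cells with one. Those shares are over genes with at least 50 CPM in either group, a level that Stmn4 reached in E14 but not in E16 or E18. The split was not particular to these 2 genes. Cells with such a UMI over those without gave ratios of 1.19, 1.44 and 1.19 for Map2 in label order. For Gap43 the ratios were 1.30, 0.91 and 1.71. The cells with a UMI were deeper, with medians of 13663.5, 12352 and 12734 UMIs against 10040, 8796 and 9249, and the part of depth in the result was not tested. In radial glia Stmn1 was 2532 and 1874 CPM in E14, 1725 and 1747 CPM in E16, and 2115 and 1774 CPM in E18, so the groups were close in E16. Stmn4 in radial glia was 33.6 CPM with and 43.6 CPM without in E14, 15.4 and 13.6 CPM in E16, and 26.6 and 21.8 CPM in E18, with no common direction. The clusters of intermediate progenitors also differed in both genes. In E14 the Efl1-led cluster had 2187 CPM of Stmn1 and 64.6 CPM of Stmn4, against 4490 and 23.2 CPM in the Gadd45g-led and 5518 and 25.4 CPM in the Ppp1r17-led cluster. The Efl1-led cluster held 261, 68 and 481 of the intermediate progenitors in label order.

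Other genes of these pathways were counted in newborn neurons over radial glia, where 13.5% of genes in E14 and 14.3% in E18 were at least 2-fold higher and 17.5% and 16.3% at least 2-fold lower. Of the 3 other collapsin response mediator genes, 2 reached 50 CPM, and 1 of them, Dpysl5, was at least 2-fold higher in both libraries, by log2 ratios of 1.67 and 1.21; Dpysl2 stood at 0.52 and 0.63. Of 11 other microtubule-associated genes, 5 reached the level and 2 were at least 2-fold higher in each library. Dcx, the doublecortin of migrating neurons, had the highest ratios, 4.38 and 6.08, and went from 34.4 CPM in E14 and 12.7 CPM in E18 radial glia to 734 and 926 CPM in newborn neurons. Map9 stood at 1.87 and 1.80, Map4 at -0.36 and -0.80, and Map7d1 at 0.03 and 0.34. Unlike Stmn2 and Mapt, Dcx was lower again in maturing neurons, at 327 and 424 CPM.

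Of 14 other growth cone, adhesion and actin genes, 12 reached the level in E14, where 5 were at least 2-fold higher and 1 lower. In E18 11 reached it, with 6 higher and 1 lower. The axonal adhesion molecules Cntn2 (3.99 and 4.75) and L1cam (3.85 and 4.72) had the highest mean ratios of the 2 libraries, and Nrcam (-2.36 and -0.70) and Marcks (-0.94 and -0.42) the lowest. The gene counted as lower was Nrcam in E14 and Ncam1 in E18, where Ncam1 stood at -1.19. In maturing neurons over radial glia, Nrcam stood at 0.06 and 1.69 and Ncam1 at 1.57 and 1.19, so neither was lower there. Marcks stayed lower, at -1.37 and -0.95. In the unnamed E16 cluster over radial glia, Nrcam stood at 3.33. Of 13 kinases that act on the members' proteins, 6 reached the level in each library and 2 were at least 2-fold higher, the JNK gene Mapk8 (1.78 and 2.08) and Mark1 (1.10 and 1.04). Another JNK gene, Mapk10, had the highest mean ratio of the kinases (3.30 and 4.27 in E14 and E18) but stayed under 50 CPM in both classes, at 45.3 and 29.1 CPM in newborn neurons, and is not among the 6. The MARK kinases Mark3 (-0.23 and 0.06) and Mark2 (0.26 and 0.05) had the lowest means among kinases with at least 50 CPM in some class of some library. Mark1 here, and Ncam1 and Kif2c in their lists, fell outside the rule for named genes and were chosen after their values were seen.

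Of 21 genes that act on microtubule ends or that nucleate or cut microtubules, 12 reached the level in E14, with 3 higher and 3 lower, and 14 in E18, with 2 higher and 4 lower. Mapre3, an end-binding protein, stood at 2.20 and 2.38, and Fign, which severs microtubules, at 1.90 and 2.62; Mapre3 missed the level in E18, at 48.2 CPM, and Fign in E14, at 49.9 CPM. The spindle genes Tpx2 (-6.77 and -4.89) and Tacc3 (-5.81 and -4.27) had the lowest means of the 2 libraries, while Kif2c, at -4.67, was below Tacc3 in E18. Fign was highest in newborn neurons and intermediate progenitors (45.0 to 60.6 CPM in the latter) and stood at 4.44 CPM in E14 and 4.47 CPM in E18 maturing neurons.

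Among the members themselves, log2 levels over 10 groups of at least 50 cells were most alike for Stmn3 and Crmp1 (r = 0.990) and least alike for Map1b and Dpysl3 (r = 0.53). The groups are radial glia, intermediate progenitors, newborn and maturing neurons by library, they share libraries and depth, and the values are a description. Of 4761 genes, those most like each member, by Pearson correlation of log2 (CPM + 1), were Kctd13 (0.989) and Pdxp (0.981) for Stmn1, Sez6l2 (0.989) for Stmn2, and Mkrn1 (0.996) and Bmerb1 (0.991) for Stmn3. For Stmn4 they were Macrod2 and Ramp2 (0.987 each), and for Gap43 Serinc1 (0.994) and Actl6b (0.992). Mapt was most like Fam110d (0.997) and Tmem59l (0.995), and Map1b most like Tspan13 (0.967) and Arpc4 (0.953). Map2 was most like Serinc1 (0.990) and Phactr3 (0.989), Dpysl3 most like Soga3 (0.987) and Camsap1 (0.986), and Crmp1 most like Atl1 (0.992) and Atcay (0.991). Serinc1 was therefore named for both Gap43 and Map2, and Map1b had the least close matches.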

How the data were processed

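Raw UMI counts per gene and cell were deposited by the authors as filtered matrices, made with Cell Ranger 6.0.1 per the file headers on build mRatBN7.2 per the submitters' processing notes; the annotation is not given in the sources used here, and neither is doublet removal. The labels' protocols also describe sorting of live human cells, which does not match primary rat cells. Cells with at least 1000 genes and at most 10% mitochondrial UMIs were kept, and Scrublet removed 0.8% of cells per 1000 recovered. Counts were scaled to 10000 per cell, and 2000 variable genes, without the members, the related lists, mitochondrial, ribosomal, haemoglobin and sex-linked genes, gave 30 components, 15 neighbours and Leiden clusters at resolution 1 (Scanpy 1.11.5, Python 3.11.15). Each cluster was given the class whose markers had the largest average log2 fold (10 CPM added), provided that at least 3 markers were 1.2-fold higher and in 20% of cells, and no rival class had more markers among the 10 leading genes. UMIs were then summed by class and library, and a log2 ratio of 1, 2-fold, was the size used. Background percentages are over genes with at least 50 CPM in either group. Ratio limits combine both groups' Poisson limits, and the ratio was tested on simulated counts. PCR errors and cell-to-cell variation are not in the intervals. The members and gene lists were chosen with earlier results of these data known. Related genes were named as the 2 highest and 2 lowest mean ratios of their list among genes with at least 50 CPM in 1 class of 1 library, over E14 and E18 because E16 had no newborn class; for each member the 2 most correlated genes were named, except 1 gene that is not reported here. The naming score, the unnamed-cluster group, the group of all excitatory neurons, the exclusion of the Crym-led cluster and the motifs were chosen after seeing the data. Alternatives were other filters, doublet rates, resolutions, gene sets, averages and pseudocounts.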

Additional observations from a re-analysis of the deposited data

Results flagged for a closer look

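In 2 of 100 compared member ratios, libraries lay on opposite sides of 0 with both counting intervals off 0. Neither difference was tested, since there is 1 library per label. Gap43 in not split over newborn neurons had a log2 ratio of -0.35 in E14 and 0.70 in E18, or -0.05 and 0.75 without the Crym-led cluster. Map1b in intermediate progenitors over radial glia had -0.39 in E14, 0.12 in E16 and -0.39 in E18.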

How the results depend on the processing

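No paired analysis was possible because each label has 1 library. Median log2 ratios of the members are given by setting. With at least 2000 genes and 5% mitochondrial UMIs, newborn over radial glia was 1.28 in E14 (54 newborn cells), all excitatory neurons over radial glia 2.59 in E14 and 3 in E18, and E18 over E14 was 0.27 in newborn and -0.11 in maturing neurons, with Stmn2 (1.33), Stmn3 (0.17) and Mapt (0.42) reversed in newborn neurons, and Map1b in E14 newborn neurons over radial glia at -0.13. With 500 genes and 20%, newborn over radial glia was 2.12 in E14 and 3.09 in E18, and newborn E18 over E14 was -0.01 (Stmn2 reversed, 0.36). With no doublets removed, newborn over radial glia was 1.68 and 2.14, all excitatory neurons 2.17 and 2.77, maturing E18 over E14 0.06, and Mapt in E18 newborn neurons over radial glia reversed to -0.17. With the doublet rate doubled, newborn over radial glia in E18 was 3.16, newborn E18 over E14 -0.26 and maturing 0.08. At resolution 0.5, newborn over radial glia in E14 was 2.22 and newborn E18 over E14 -0.34. At resolution 2, newborn over radial glia in E18 was 3.28, all excitatory neurons in E18 3.38 and newborn E18 over E14 -0.06 (Stmn2 reversed, 0.02). Clustering each library alone gave 3.18 for newborn over radial glia in E18, -0.02 for newborn E18 over E14 (Stmn2 reversed, 0.07) and -0.19 for maturing. With the members among the variable genes, newborn over radial glia in E14 was 2.11 and newborn E18 over E14 -0.23. Means over cells gave 2.67 for all excitatory neurons in E14, 3.35 for the unnamed cluster and -0.55 for newborn E18 over E14. Adding 10 CPM gave 2.68 and 3.12 for all excitatory neurons, 3.2 for the unnamed cluster and 2.55 for newborn in E18. Without the Crym-led cluster, chosen after seeing the data, newborn over radial glia in E14 was 1.92 and newborn E18 over E14 -0.2 (Stmn2 reversed, 0.09). The causes were not tested. Map1b in all excitatory neurons of E14 lay under 2-fold in 2 of 12 settings. Counts of members at least 2-fold higher in newborn neurons than in radial glia stayed from 6 to 9 in both libraries. The newborn difference between E18 and E14 therefore depends on these settings, while in every setting with a value Stmn4 was lower in E18 newborn and maturing neurons. The unnamed cluster has no value under the stricter filter, the doubled doublet rate and resolution 0.5, and maturing E18 over E14 none at resolution 0.5. The 4 newborn results of E16 have no value in the settings reported; clustering E16 alone gave 318 newborn cells and a median of 3.17 over radial glia; E16 over E14 was -0.59 and E18 over E16 was 0.48. Free RNA limits Stmn2 and Mapt in the radial glia of E14 and E18, Stmn3 in those of E14, and Stmn2 and Mapt in E14 intermediate progenitors. By the share of cells with a UMI, it also limits Stmn2 in the radial glia of E16.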
